A study of Mus musculus with 8 samples.

Results

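The 10 genes described here encode carriers and channels that move chloride, bicarbonate, sulfate, sodium and water across the colonic epithelium. They are the chloride-bicarbonate exchanger Slc26a3, the sulfate carrier Slc26a2, the sodium-proton exchangers Slc9a2 and Slc9a3, the sodium channel subunits Scnn1a and Scnn1b, the chloride loader Slc12a2, the chloride channel Cftr and the water channels Aqp8 and Aqp4. They were picked by name out of the 32285 genes in the count tables, by a rule that uses no measured value, although earlier results of these data were known when they were picked. The measurement was droplet single-cell RNA sequencing with the 10x Genomics 3' v3 kit in 6 epithelial libraries of C57BL/6 mouse colon, 2 in each of 3 groups. The tissue libraries hold epithelial cells freshly released from colon with EDTA. The assembloid libraries hold the epithelial cells of colon organoids that had been combined with primary colon stromal cells and grown floating in Matrigel, in medium from which the Wnt surrogate, CHIR-99021, R-spondin 1 and noggin had been left out. Organoid libraries come from colon epithelium grown in Matrigel without stroma, in full medium that contains these factors. No gene was deleted and no drug was tested in any of these groups. Culture medium, stroma, growth on an orbital shaker and the enzymes that released the cells differ together between organoids and assembloids. Their parts cannot be told apart. Assembloid cells were released with Liberase TL and DNase I and then TrypLE, organoid cells with TrypLE alone. Tissue crypts were treated with TrypLE after EDTA, so that cell release differs among all groups. Stromal cells from assembloids, described as negative for the epithelial protein EpCAM, make up 2 further libraries that are used here only as a background.

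In the distal gut, absorptive colonocytes take up sodium and chloride through paired exchangers at the apical membrane, and water follows. Sodium channels add an aldosterone-driven route for sodium, while cells lower in the crypt load chloride from the blood side through Slc12a2 and release it to the lumen through Cftr. Colonocytes arise from Lgr5-positive stem cells at the crypt base and carry the keratin Krt20 once they reach the surface.

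Between 4305 and 28126 cells per library were kept, with 36942916 to 187583982 UMIs (unique molecular identifiers, each a counted RNA molecule) in a library. A minimum of 500 genes and a maximum of 10% of counts from mitochondrial genes were asked of each cell. Between 25.4% and 89.3% of the barcodes met both, with 38.7% and 25.4% in the tissue libraries. Among barcodes with enough genes the median mitochondrial share was 13.3% and 16.2% in tissue, 2.77% and 6.18% in assembloids and 2.29% and 8.66% in organoids, and 7352 of 12137 and 12571 of 16974 tissue barcodes failed on that share alone, so this sign of cell quality differed with the groups and its part in the results was not tested beyond other limits on the share. The median depth ran from 3392 UMIs per cell in tissue library 1 to 35219 in organoid library 1. Krt20, which labels mature colonocytes, was at 95.9 and 144 CPM (UMIs per 1000000 UMIs) in tissue, 98.9 and 99.2 in assembloids and 0.704 and 0.495 in organoids. Lgr5 was at 24.2 and 16.2 in tissue, 6.61 and 8.10 in assembloids and 128 and 283 in organoids. Libraries of one group differed by far more than counting error (chi-square per gene of 24.2 in tissue, 307 in assembloids and 401 in organoids), so every test rests on libraries and not on cells.

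Levels are given as CPM of the cells summed, in tissue, assembloids and organoids, in the order of replicates 1 and 2. A sum cannot tell fewer cells of a type from less RNA per cell. For this reason the sums were also made in a Krt20 gate (at least 1 UMI of Krt20 and none of Lgr5) and an Lgr5 gate (the converse). The Krt20 gate held 738 and 1062 tissue cells, 7203 and 2135 assembloid cells and only 18 and 7 organoid cells, so organoids were not tested in it. The Lgr5 gate held 251 and 165, 643 and 400, and 3519 and 4252 cells. Fold changes come from the quasi-likelihood test of edgeR across all genes, with TMM scaling, and a gene was called at a Benjamini-Hochberg adjusted p under 0.05. They are therefore relative to the bulk of the genes and differ in size from the ratio of 2 CPM values. With 2 libraries in a group, an exact permutation test could not go below p = 0.3333, and none is given.

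Over all epithelial cells, 9 of the 10 genes were lower in assembloids than in tissue, beside 50.2% of the 19313 genes tested that were called in either direction and 23.2% that were called lower. The median log2 fold change was -2.61 over the 10 genes and 0.03 over all genes tested. Organoids were lower than tissue for 9 of the 10 genes as well, beside 47.3% of all genes called and 22.9% called lower, with a median of -3.16 against 0.06. Aqp8 and Scnn1b passed the filter on low counts through tissue and assembloids and not through organoids, so that 7 of these 9 calls are free of that limit, and so are 3 of the 4 lower calls in the next comparison. Both comparisons use the same tissue libraries. Between organoids and assembloids 6 genes were called, 4 lower and 2 higher in organoids, beside 53.8% of all genes, of which 29% of those tested were lower and 24.7% higher. The plot of levels by library shows every value behind these counts.

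**Figure D1:**
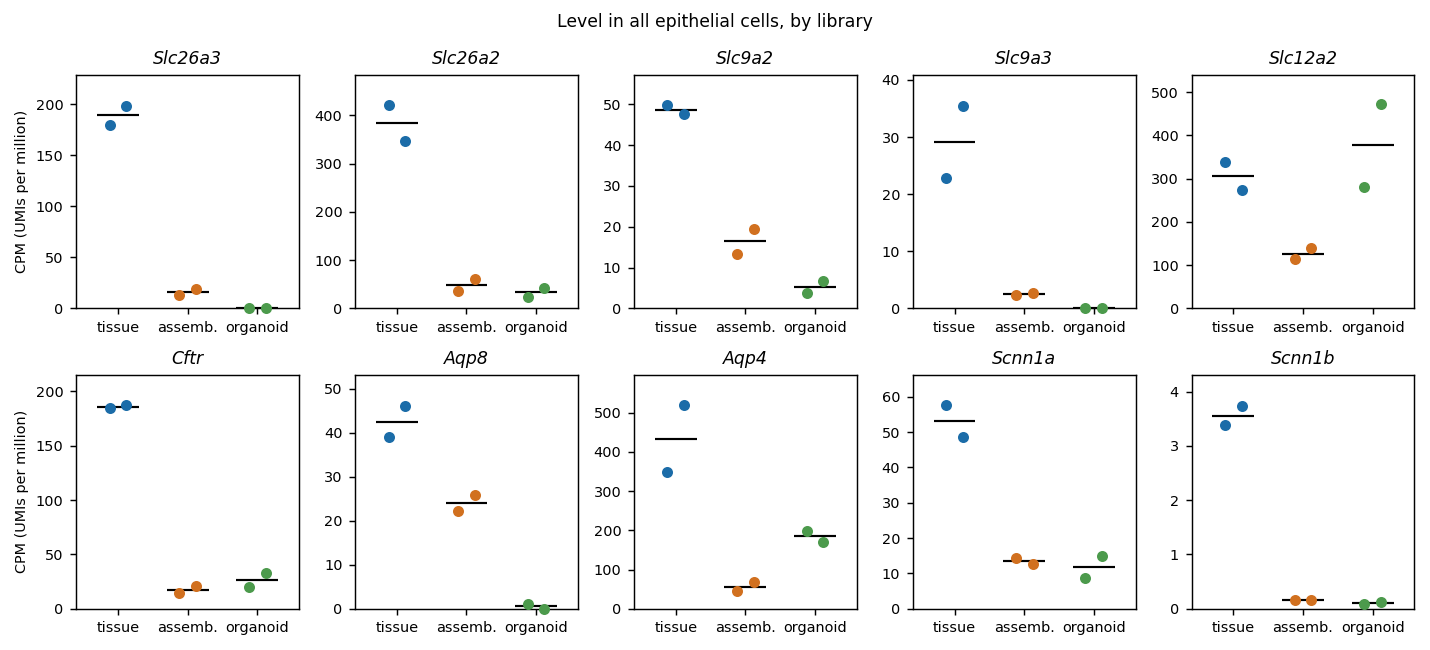
CPM of the 10 genes in the 6 epithelial libraries (x axis: tissue, assembloid and organoid libraries; y axis: CPM, linear from 0 in each panel), with 1 point a library and a black bar at the mean of 2. Slc26a3 falls from tissue to assembloids to organoids, whereas Slc12a2 has an organoid point, 473 CPM, above both tissue points.

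Promoters of 5 of the 10 genes (Slc26a3, Slc9a3, Cftr, Aqp8 and Scnn1b) were found in the RefSeq table for build GRCm38.p6, as the 250 bases before the start of transcription. A pair of genes that were high in the Krt20 gate and a gene that was high in the Lgr5 gate are shown because the report turns on this contrast. They are Slc26a3 (chr12:31437969-31438218, plus strand), Aqp8 (chr7:123462044-123462293, plus strand) and Cftr (chr6:18170437-18170686, plus strand), written 5′ to 3′, with a TATA box (TATAAA) or GC box (GGGCGG, on either strand) in capitals.
Slc26a3: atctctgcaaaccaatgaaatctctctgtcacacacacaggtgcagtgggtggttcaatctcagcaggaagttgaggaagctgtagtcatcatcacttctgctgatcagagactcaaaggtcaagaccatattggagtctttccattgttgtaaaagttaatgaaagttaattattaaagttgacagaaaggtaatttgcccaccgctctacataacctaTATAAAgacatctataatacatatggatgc
Aqp8: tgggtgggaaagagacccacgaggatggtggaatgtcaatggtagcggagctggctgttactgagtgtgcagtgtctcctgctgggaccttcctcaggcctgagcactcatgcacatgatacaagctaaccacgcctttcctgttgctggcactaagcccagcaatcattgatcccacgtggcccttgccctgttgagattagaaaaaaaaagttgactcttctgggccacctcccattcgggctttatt
Cftr: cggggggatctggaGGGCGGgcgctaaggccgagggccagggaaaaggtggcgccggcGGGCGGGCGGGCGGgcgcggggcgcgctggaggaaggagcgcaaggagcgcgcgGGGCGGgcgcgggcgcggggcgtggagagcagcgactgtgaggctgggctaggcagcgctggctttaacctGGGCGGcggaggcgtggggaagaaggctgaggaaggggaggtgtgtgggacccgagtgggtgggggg
G and C made up 38.8% of the bases in the Slc26a3 sequence, 52.4% in Aqp8 and 76.4% in Cftr. The Slc26a3 window holds 1 TATA box, whose first base lies 30 bases before the start, a word that is in 12.4% of the 32851 promoter windows of the same length. Cftr holds 6 GC boxes, 3 of them overlapping in 1 run, and this word is in 32.7% of the windows. Neither word is in the Aqp8 window, nor are the CDX word TTTATG (10.8% of windows), the HNF4 word CAAAGTCCA (0.384%) or the GATA word AGATAA (9.99%). Of the 2 genes not printed, Slc9a3 holds 3 GC boxes and Scnn1b 1. These are matches of letters on both strands and no evidence of binding.

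Slc26a3 (chromosome 12, 31390871 to 31473917, plus strand, in the GENCODE M21 annotation of GRCm38) exchanges luminal chloride for bicarbonate and is the main route of chloride uptake in the colon. The promoter window printed above (31437969 to 31438218) lies inside this span, so that the RefSeq start used there is not the start of the span. The level of Slc26a3 was 179.6 and 198 CPM in tissue, 13.3 and 19.2 in assembloids and 0.885 and 0.914 in organoids. The 3 groups did not overlap, and assembloids held 8.59% and organoids 0.476% of the tissue mean. By edgeR it was 9.07-fold lower in assembloids than in tissue (log2 -3.18, SE 0.23, adjusted p = 3.099e-05) and 176-fold lower in organoids (log2 -7.46, SE 0.28, adjusted p = 3.832e-06). Organoids were also 19.4-fold lower than assembloids (log2 -4.28, adjusted p = 2.381e-05). Both stromal libraries held next to none of it, 0.006 and 0.021 CPM.

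The difference in Slc26a3 was present inside the Krt20 gate, where 9 of the 10 genes were lower in assembloids than in tissue, beside 50.6% of the 15495 genes tested that were called and 22.9% called lower. All 10 were tested, but Scnn1b passed the filter on low counts through the tissue libraries alone, so that 8 of the 9 calls are free of that limit. The median in this gate was -3.06 over the 10 genes and 0.04 over all. Slc26a3 stood at 612 and 449 CPM in the tissue cells of the gate and at 24.4 and 40.8 in the assembloid cells, with no overlap, and edgeR gave a log2 difference of -3.60 (SE 0.29, adjusted p = 0.0004817). After each cell was thinned to 2000 UMIs, 47.5% and 42.5% of tissue cells in the gate had a UMI of Slc26a3, against 4.08% and 7.34% of assembloid cells. Before thinning these shares were 64.8%, 63.4%, 10.7% and 24.1%, at median depths of 15560, 10650, 5604 and 16975 UMIs. The non-epithelial cells in the assembloid libraries, which should lack it, had a UMI in 0.285% and 0.51%. In the Lgr5 gate Slc26a3 was at 14.6 and 40.8 in tissue, 6.08 and 1.59 in assembloids and 0.544 and 0.872 in organoids, all in CPM.

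Slc26a2 (chromosome 18, 61192919 to 61211612, minus strand) carries sulfate, which goblet cells and colonocytes use to sulfate mucins and other molecules. Tissue libraries held 421 and 347 CPM, assembloids 35.4 and 62.1, and organoids 24.5 and 43.1, so that both cultures lay below tissue and overlapped each other. It was 6.17-fold lower in assembloids than in tissue (log2 -2.63, SE 0.30, edgeR adjusted p = 0.0002472) and 9.88-fold lower in organoids (log2 -3.30, adjusted p = 8.088e-05). Between organoids and assembloids the difference of -0.68 was not called by edgeR (95% interval -1.32 to -0.03, adjusted p = 0.0713). Without assembloid library 1 it was -0.98 (adjusted p = 0.03379) and without organoid library 2 it was -0.91 (edgeR adjusted p = 0.0498). It was also called with DESeq2 (-0.76, adjusted p = 0.02202) and in thinned cells (-0.81, edgeR adjusted p = 0.04911). Cells of the Krt20 gate held Slc26a2 at 902 and 563 CPM in tissue and 47.4 and 76.7 in assembloids (log2 -3.13, edgeR adjusted p = 0.00096). Those of the Lgr5 gate held it at 115 and 147 CPM in tissue, 26.1 and 54.3 in assembloids and 22.3 and 42.3 in organoids.

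The sodium-proton exchangers take up sodium in exchange for protons and act side by side with Slc26a3. Slc9a3 (chromosome 13, 74121457 to 74169442, plus strand), the apical exchanger known as NHE3, was at 22.9 and 35.5 CPM in tissue, 2.35 and 2.65 in assembloids and 0.16 and 0.151 in organoids. No groups overlapped. It was 9.03-fold lower in assembloids than in tissue (log2 -3.17, SE 0.28, edgeR adjusted p = 7.329e-05) and 154-fold lower in organoids (log2 -7.27, SE 0.35, adjusted p = 5.914e-06), and organoids were 17.1-fold lower than assembloids (log2 -4.09, adjusted p = 6.351e-05). Inside the Krt20 gate the tissue libraries had 83.7 and 90.0 CPM and the assembloid libraries 4.84 and 6.16 (log2 -3.54, SE 0.16, edgeR adjusted p = 0.0001315). Slc9a3 and Scnn1b did not pass the filter on low counts in the Lgr5 gate and were not tested there.

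Slc9a2 (chromosome 1, 40680574 to 40769273, plus strand), another apical exchanger known as NHE2, showed a smaller difference. Its level was 49.8 and 47.6 CPM in tissue, 13.4 and 19.4 in assembloids and 3.76 and 6.68 in organoids, again with no overlap among the 3 groups. Assembloids were 2.31-fold lower than tissue (log2 -1.21, SE 0.22, edgeR adjusted p = 0.002683), organoids 8.13-fold lower than tissue (log2 -3.02, adjusted p = 3.674e-05) and 3.52-fold lower than assembloids (log2 -1.82, adjusted p = 0.0004235). The Krt20 gate held 131 and 98.1 CPM in tissue and 23 and 35.6 in assembloids (log2 -1.54, edgeR adjusted p = 0.003489). Lgr5 cells had it at 15.4 and 11.1 CPM in tissue, 4.004 and 7.94 in assembloids and 3.56 and 6.56 in organoids, and only the difference between organoids and tissue was called there (log2 -1.16, edgeR adjusted p = 0.03168), a call that was lost without tissue library 1 (adjusted p = 0.3168), tissue library 2 (0.07626), organoid library 1 (0.2478) or organoid library 2 (0.05634), at 5% mitochondrial counts (0.2874) and with gates at 2 or more UMIs (0.1667). Slc9a2 shares its locus with the antisense gene Gm37623, and a split of their reads relies on the strand.

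Subunits of the epithelial sodium channel, which absorbs sodium under aldosterone in the distal colon, were counted at very different levels. Scnn1a (chromosome 6, 125320659 to 125344943, plus strand), the alpha subunit, was at 57.8 and 48.6 CPM in tissue, 14.4 and 12.8 in assembloids and 8.69 and 15.0 in organoids. Both cultures overlapped each other and lay below tissue. The fold was 3 between tissue and assembloids (log2 -1.59, SE 0.23, edgeR adjusted p = 0.0008506) and 3.91 between tissue and organoids (log2 -1.97, adjusted p = 0.0002828), and organoids and assembloids differed by -0.38 (95% interval -0.90 to 0.14, adjusted p = 0.1863), which was -0.79 and called in thinned cells (adjusted p = 0.04617). Its level in the Krt20 gate was 93.8 and 69.3 CPM in tissue and 16.7 and 15.2 CPM in assembloids (log2 -1.91, edgeR adjusted p = 0.001129). The Lgr5 gate gave 22.4 and 25.7 in tissue, 9.94 and 9.42 in assembloids and 8.17 and 14.8 in organoids.

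Scnn1b (chromosome 7, 121865038 to 121918514, plus strand), the beta subunit, was at 3.38 and 3.74 CPM in tissue, 0.16 and 0.165 in assembloids and 0.0853 and 0.118 in organoids, so that the 3 groups did not overlap. It was 16.7-fold lower in assembloids than in tissue (log2 -4.06, SE 0.41, edgeR adjusted p = 0.0001428) and 29.8-fold lower in organoids (log2 -4.90, adjusted p = 6.222e-05), where it did not pass the filter, so that the second call adds no support to the levels. Organoids differed from assembloids by -0.83 (95% interval -1.78 to 0.12, edgeR adjusted p = 0.1213). Stromal libraries held more of it, 1.26 and 1.74 CPM, than the assembloid epithelium, so that what is counted in assembloids cannot be told from free RNA of the stroma. In the Krt20 gate 126 UMIs were counted in tissue, at 5.83 and 4.60 CPM, against 2 and 9 UMIs in the assembloid libraries. The ratio of the pooled levels was 46.3, with a 95% interval of 25 to 95.1 that covers counting error only. Because Scnn1b passed the filter there through the tissue libraries alone, its call in the gate (log2 -4.97, edgeR adjusted p = 0.003063) carries no weight of its own, and it ran from -4.12 without assembloid library 1 to -6.57 without assembloid library 2. The gamma subunit Scnn1g was sparse everywhere, at 0.617 and 0.541 CPM in tissue and 0.0592 and 1.15 in assembloids, and assembloid library 2 was the highest of all. Scnn1b lies over the antisense gene Cog7.

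Chloride secretion takes a basolateral loader and an apical channel. Slc12a2 (chromosome 18, 57878678 to 57946821, plus strand), the basolateral sodium-potassium-chloride cotransporter NKCC1, had 338 and 274 CPM in tissue, 115 and 139 in assembloids and 279.6 and 473 in organoids. Assembloids lay below the other groups, and tissue and organoids overlapped. By edgeR it was 1.87-fold lower in assembloids than in tissue (log2 -0.90, SE 0.25, adjusted p = 0.01717) and 2.65-fold higher in organoids than in assembloids (log2 1.41, SE 0.26, adjusted p = 0.002152). The first of these calls was lost without any 1 of the tissue and assembloid libraries. The edgeR adjusted p was 0.176 without tissue library 1, 0.07395 without tissue library 2, 0.09372 without assembloid library 1 and 0.05148 without assembloid library 2. Organoids and tissue differed by 0.51 (95% interval -0.066 to 1.078, edgeR adjusted p = 0.1291), a difference that was 0.69 and called without organoid library 1 (adjusted p = 0.04009), and 0.73 and called without goblet-rich cells (adjusted p = 0.03863).

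Within the gates, Slc12a2 differed between tissue and assembloids in Lgr5 cells but was not called in Krt20 cells. In the Krt20 gate it was at 126 and 130.1 CPM in tissue and 82.8 and 75.8 in assembloids (log2 -0.24, 95% interval -0.60 to 0.13, edgeR adjusted p = 0.2233). This difference was called lower without TMM. It lay above 0 without goblet-rich cells, in thinned cells and with gates at 2 or more UMIs. Non-epithelial cells of the assembloid libraries held Slc12a2 at 74.4 and 62.03 CPM, near its level in the Krt20 gate of assembloids. After thinning, 9.61% and 8.93% of them had a UMI, against 14.1% and 12.6% of the Krt20 cells of assembloids. The part of free RNA in this gate, and in the comparison of gates that uses it, was not tested. In the Lgr5 gate it was at 692 and 594 in tissue, 193 and 259.6 in assembloids and 305 and 513 in organoids, in CPM. The libraries of tissue lay above all culture libraries there, and assembloids were 2.14-fold lower than tissue (log2 -1.10, edgeR adjusted p = 0.01028), while organoids and tissue differed by -0.40 (95% interval -1.01 to 0.22, adjusted p = 0.2879). The call for assembloids was lost without tissue library 1 (edgeR adjusted p = 0.1531), tissue library 2 (0.07568) or assembloid library 1 (0.07856).

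Cftr (chromosome 6, 18170687 to 18322768, plus strand), the apical chloride and bicarbonate channel that is mutated in cystic fibrosis, was low in both cultures. Tissue held 184 and 187 CPM, assembloids 14.5 and 20.8, and organoids 20.4 and 32.8. Both cultures lay far below tissue and overlapped each other. The fold against tissue was 8.20 in assembloids (log2 -3.04, SE 0.23, edgeR adjusted p = 3.947e-05) and 6.04 in organoids (log2 -2.60, SE 0.23, adjusted p = 6.117e-05), and organoids differed from assembloids by 0.44 (95% interval -0.05 to 0.93, adjusted p = 0.1151), which was 0.59 and called with all passing cells kept, non-epithelial ones included (edgeR adjusted p = 0.04034). Cftr overlaps the antisense gene Gm15592.

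Its difference from tissue was present in both marker gates, with organoids tested in the Lgr5 gate alone. Krt20 cells had Cftr at 114 and 133 CPM in tissue and 11.4 and 11.6 in assembloids (log2 -2.98, SE 0.15, edgeR adjusted p = 0.0001542). Lgr5 cells had it at 357 and 360.2 CPM in tissue, 26.6 and 45.6 in assembloids and 21.8 and 35.2 in organoids. Neither culture overlapped with tissue, and the level was 7.50-fold lower in assembloids (log2 -2.91, SE 0.29, edgeR adjusted p = 1.454e-05) and 10.5-fold lower in organoids (log2 -3.40, SE 0.30, adjusted p = 3.748e-06). In thinned cells of the Lgr5 gate, a UMI of Cftr was found in 46.4% and 45% of tissue cells, 5.62% and 7.04% of assembloid cells and 4.76% and 6.88% of organoid cells, against 0.381% and 0.51% of the non-epithelial cells of the assembloid libraries. Before thinning the shares in this gate were 78.5% and 65.5%, 17% and 42.3%, and 31.3% and 26.01%. The median depths were 11447 and 7418, 7236 and 20292, and 36821 and 14736 UMIs.

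In the Lgr5 gate 6 of the 8 genes tested were lower in assembloids than in tissue, beside 36.8% of all 13768 genes called and 17.6% called lower. They were Slc26a3 (log2 -2.40, edgeR adjusted p = 0.009482), Slc26a2 (-1.29, adjusted p = 0.008249), Slc12a2, Cftr, Aqp4 (-0.94, adjusted p = 0.03484) and Scnn1a (-0.88, adjusted p = 0.04105). Slc9a2 (-0.75, 95% interval -1.63 to 0.13) and Aqp8 were not called, although Slc9a2 was called with a limit of 20% on mitochondrial counts (-1.07, edgeR adjusted p = 0.04283), with no limit (-1.12, adjusted p = 0.03305) and without assembloid library 2 (-1.23, adjusted p = 0.04477). This count depended on single libraries, since 3 genes were called without tissue library 1, 1 without tissue library 2 and 2 without assembloid library 1. Slc26a3 was at -1.46 without tissue library 2, -3.72 without assembloid library 1 and -1.61 without assembloid library 2, and its call was lost without tissue library 2 (edgeR adjusted p = 0.1715) or organoid library 2 (0.05112). The call of Slc26a2 was lost without tissue library 2 (0.09463) or assembloid library 1 (0.06372), that of Aqp4 without tissue library 1 (0.1027), tissue library 2 (0.2867) or assembloid library 1 (0.2772), and that of Scnn1a without any 1 tissue or assembloid library (0.05695 to 0.2034). At 5% mitochondrial counts the calls of Slc26a3 (edgeR adjusted p = 0.1014), Aqp4 (0.06573) and Scnn1a (0.1674) were lost. Aqp4 and Scnn1a lost theirs also at 20% (0.07071 and 0.1513), with no limit (0.07218 and 0.1499) and with gates at 2 or more UMIs (0.08825 and 0.2487), Scnn1a with DESeq2 (0.06609) and Slc12a2 in thinned cells (0.06158). Cftr was called in each of these fits, and with 1 library left out it ran from -3.23 to -2.62. Organoids were lower than tissue for 6 of the 8 genes, beside 38.8% of all genes called, 19.2% lower and 19.6% higher. These were Slc26a3 (log2 -4.99), Slc26a2 (-1.76), Slc9a2, Cftr, Aqp8 (-6.55) and Scnn1a (-0.81), with an edgeR adjusted p of at most 0.04587. The call of Scnn1a was lost without either tissue library (adjusted p = 0.174 and 0.2495) or organoid library 1 (0.2565), without the filter (0.1267) and at 5% (0.1311), 20% (0.1592) or no limit (0.1629) on mitochondrial counts, and Aqp8 ran from -9.06 without organoid library 1 to -5.79 without tissue library 2. Slc26a3 was at -4.07 without tissue library 2. Between organoids and assembloids 3 genes were called, beside 34% of all genes (18.6% lower, 15.4% higher), with Slc26a3 (log2 -2.60, edgeR adjusted p = 0.007294) and Aqp8 lower and Aqp4 higher (1.38, adjusted p = 0.005348) in organoids. Slc26a3 and Aqp8 passed the filter in this gate through tissue and assembloids, where they are higher, and not through organoids, so their calls against organoids add no support. The Slc26a3 difference was -3.33 without assembloid library 2, -1.22 without assembloid library 1 (edgeR adjusted p = 0.1282) and was not called without organoid library 1 (0.1246) or organoid library 2 (0.07321) or with gates at 2 or more UMIs (0.1786) either, and Aqp4 was not called without organoid library 1 (0.05562). Aqp8 was at -9.12 without organoid library 1 and -5.90 without organoid library 2. Differences of -0.47 for Slc26a2, -0.40 for Slc9a2, 0.70 for Slc12a2, -0.49 for Cftr and 0.08 for Scnn1a were not called. That of Slc12a2 was called with DESeq2 (0.62, adjusted p = 0.04318), and by edgeR without the filter (0.87, adjusted p = 0.02738), without TMM (0.85, adjusted p = 0.03119) and without organoid library 1 (0.95, adjusted p = 0.0313).

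**Figure D2:**
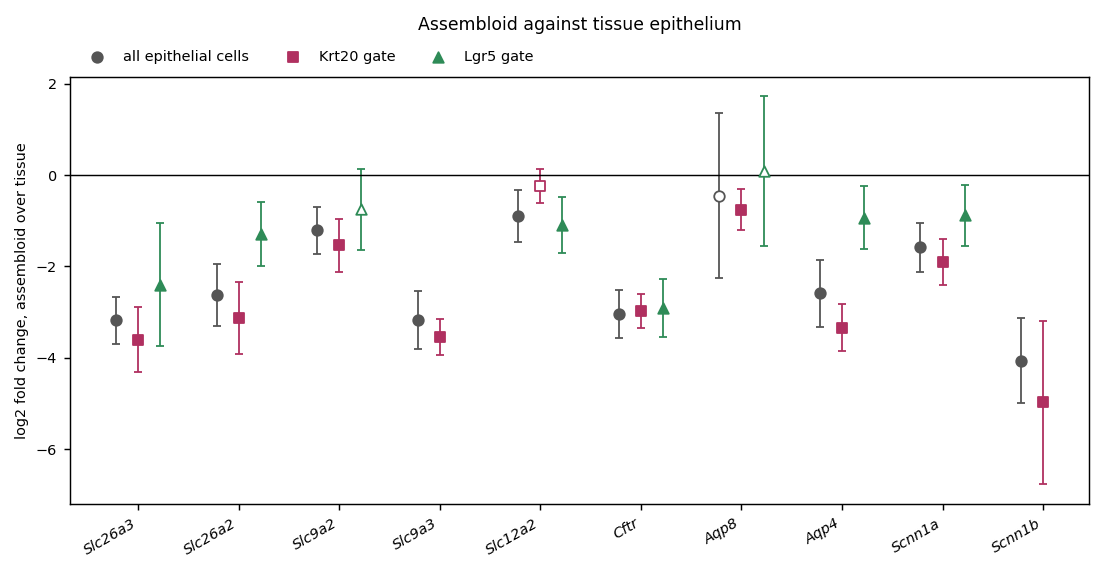
Log2 fold change of assembloids over tissue with 95% intervals from edgeR for the 10 genes, over all epithelial cells and in the Krt20 and Lgr5 gates (x axis: genes, y axis: log2 fold change). Filled points were called and open points were not. Cftr lies near -3 in all 3 sets of cells, whereas Aqp4 is at -3.34 in the Krt20 gate and -0.94 in the Lgr5 gate.

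Aqp8 (chromosome 7, 123462291 to 123468004, plus strand), a water channel of surface colonocytes, was the gene with the smallest fold between assembloids and tissue over all cells. Tissue had 39.0 and 46.0 CPM, assembloids 22.2 and 25.9, and organoids 1.05 and 0.0108. The groups did not overlap, yet the log2 difference between assembloids and tissue of -0.45 was not called, with a wide interval (95% interval -2.26 to 1.36, edgeR adjusted p = 0.6574). The fit shares 1 spread per gene over the 3 groups, and the organoid libraries were far apart. Without organoid library 1 or without organoid library 2 the difference was -0.46 and was called (edgeR adjusted p = 0.03925 and 0.03787). Organoids were lower than tissue (log2 -5.83, SE 0.99, edgeR adjusted p = 0.001719) and lower than assembloids (log2 -5.38, SE 0.98, adjusted p = 0.002152), but the gene passed the filter through tissue and assembloids alone, so these calls add no support to the levels. Without organoid library 1 these were -11.7 and -11.24, and without organoid library 2 they were -4.91 and -4.45.

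Aqp8 RNA was concentrated in the Krt20 gate. This gate held 15.7% and 24.7% of the tissue cells and 25.6% and 30.8% of the assembloid cells, and it held 90.6% and 77.5% of the Aqp8 UMIs in tissue and 74.3% and 85.3% in assembloids. In the gate Aqp8 was at 140.3 and 106 CPM in tissue and 48.4 and 59.3 in assembloids, a difference of -0.76 (SE 0.19, edgeR adjusted p = 0.01735) that was -0.55 and not called without tissue library 1 (adjusted p = 0.1552), nor at 5% mitochondrial counts (-0.85, adjusted p = 0.2575). The share of thinned cells of the gate with a UMI was 14.7% and 12.1% in tissue and 6.81% and 6.52% in assembloids, above 0.666% and 0.128% in the non-epithelial cells of the assembloid libraries. Unthinned, it was 24.3% and 23.5% in tissue and 13.8% and 16.8% in assembloids. In organoid library 1, 188 of 197 UMIs of Aqp8 came from the 18 cells of the Krt20 gate, 6 of which had any, and a single cell held 81. Organoid library 2 had 1 UMI of Aqp8 in 8033 cells. Lgr5 cells had Aqp8 at 2.27 and 6.05 CPM in tissue and 3.86 and 2.27 in assembloids, which overlapped (log2 0.09, 95% interval -1.55 to 1.72, edgeR adjusted p = 0.942), while 7 UMIs and 0 UMIs were counted in organoids.

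Aqp4 (chromosome 18, 15389496 to 15410982, minus strand) is a water channel of the basolateral membrane. It was at 349 and 519 CPM in tissue, 44.9 and 68.1 in assembloids and 199 and 171 in organoids, so that the 3 groups were apart and assembloids were lowest. Assembloids were 5.998-fold lower than tissue (log2 -2.58, SE 0.32, edgeR adjusted p = 0.0003774) and organoids 3.06-fold higher than assembloids (log2 1.61, SE 0.31, adjusted p = 0.002833). Organoids were below tissue by -0.97 (edgeR adjusted p = 0.02883), a call that was lost without tissue library 1 (adjusted p = 0.05161), tissue library 2 (adjusted p = 0.2767) or organoid library 2 (adjusted p = 0.125). It was also lost with a limit of 5% (edgeR adjusted p = 0.09868) or 20% (0.08972) on mitochondrial counts, with no such limit (0.1192) and in thinned cells (-0.54, adjusted p = 0.1797). Krt20 cells held Aqp4 at 599 and 815 CPM in tissue and 46.6 and 56.4 in assembloids (log2 -3.34, SE 0.21, edgeR adjusted p = 0.0002395). Lgr5 cells held it at 152 and 208 CPM in tissue, 47.9 and 94.4 in assembloids and 211 and 186 in organoids. Organoids overlapped with tissue in that gate and differed from it by 0.45 (95% interval -0.23 to 1.12, edgeR adjusted p = 0.2744). An antisense gene, AC133525.2, overlaps Aqp4.

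The gates were then compared with each other, library by library, to see how each gene changes between Lgr5 and Krt20 cells. No position in the crypt was measured. In tissue all 10 genes were called between the Krt20 and Lgr5 gates, 8 higher and 2 lower in Krt20 cells, beside 40.9% of all 15099 genes called, 21.5% higher and 19.4% lower. Aqp8 was 45.1-fold higher in Krt20 cells (log2 5.50, SE 0.36, edgeR adjusted p = 6.567e-05), Slc9a3 45.2-fold (log2 5.50, SE 0.35, adjusted p = 6.255e-05) and Slc26a3 27.6-fold (log2 4.79, SE 0.50, adjusted p = 0.0003415). The tissue libraries differed in the size of this step, with ratios of 61.9 and 17.6 for Aqp8, 83.1 and 17.9 for Slc9a3 and 41.9 and 11.01 for Slc26a3. Without tissue library 1 the log2 values were 4.49, 4.51 and 3.81, and without tissue library 2 they were 6.33, 6.75 and 5.78. Slc9a2 (log2 3.47), Slc26a2 (2.84), Aqp4 (2.33) and Scnn1a (2.15) were higher as well. Slc12a2 was 3.94-fold lower in Krt20 cells (log2 -1.98, SE 0.13, edgeR adjusted p = 6.567e-05) and Cftr 2.29-fold lower (log2 -1.19, SE 0.14, adjusted p = 0.0004791). Scnn1b passed the filter through the tissue Krt20 cells alone, and its call (log2 3.37, edgeR adjusted p = 0.01901) rested on 3 UMIs and 1 UMI in the Lgr5 gates and was lost without either tissue library (adjusted p = 0.2516 and 0.144), without goblet-rich cells (0.2781), at 5% mitochondrial counts (0.2966) and with DESeq2 (0.05096).

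In assembloids 8 of the 10 genes were called in the same comparison, 6 higher and 2 lower in Krt20 cells, beside 29.8% of all genes called, 16.5% higher and 13.3% lower. Aqp8 was 22.5-fold higher (log2 4.49, SE 0.30, edgeR adjusted p = 0.0002858), Slc9a3 17.7-fold (log2 4.14, SE 0.49, adjusted p = 0.001397), Slc26a3 11.1-fold (log2 3.48, SE 0.61, adjusted p = 0.005568) and Slc9a2 6.13-fold (log2 2.62, SE 0.13, adjusted p = 0.0002402). Slc26a3 was at 5.06 without assembloid library 1 and 2.35 without assembloid library 2, and Aqp8 at 5.09 without assembloid library 1. Scnn1a (log2 1.02, edgeR adjusted p = 0.004637) and Slc26a2 (0.97, adjusted p = 0.01755) were higher as well. Slc9a3 had 3 UMIs in the Lgr5 gate of each assembloid library and did not pass the filter there, so that within assembloids it was kept by the Krt20 gate, where it is high, and its fold and call add no support to the levels. The call of Slc26a2 was lost without TMM, the scaling of library sizes (edgeR adjusted p = 0.08443), without the library term (0.1185), at 5% mitochondrial counts (0.1323) and in thinned cells (0.09988). Slc26a3 lost its call at 5% (0.05033) and Slc9a3 in thinned cells (0.07422), and the count of 8 was 6 under either setting. Non-epithelial cells of the assembloid libraries held Slc26a3 at 3.23 and 1.62 CPM, Aqp8 at 3.23 and 1.21, Slc9a3 at 0.809 and 0.708 and Slc9a2 at 6.87 and 2.02. The Lgr5 gates of assembloids, with 6.08 and 1.59, 3.86 and 2.27, 0.445 and 0.34, and 4.004 and 7.94 CPM in the same order, lay near or among these levels, and the part of free RNA in them was not tested. Slc12a2 (log2 -1.20, edgeR adjusted p = 0.0008994) and Cftr (log2 -1.32, adjusted p = 0.001397) were lower in Krt20 cells, as they were in tissue. Aqp4 was not called (log2 -0.11, 95% interval -0.43 to 0.22, edgeR adjusted p = 0.6124). Scnn1b, with 1 UMI and 0 UMIs in the Lgr5 gates, was not called either (log2 1.12, 95% interval -2.29 to 4.52, adjusted p = 0.605).

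**Figure D3:**
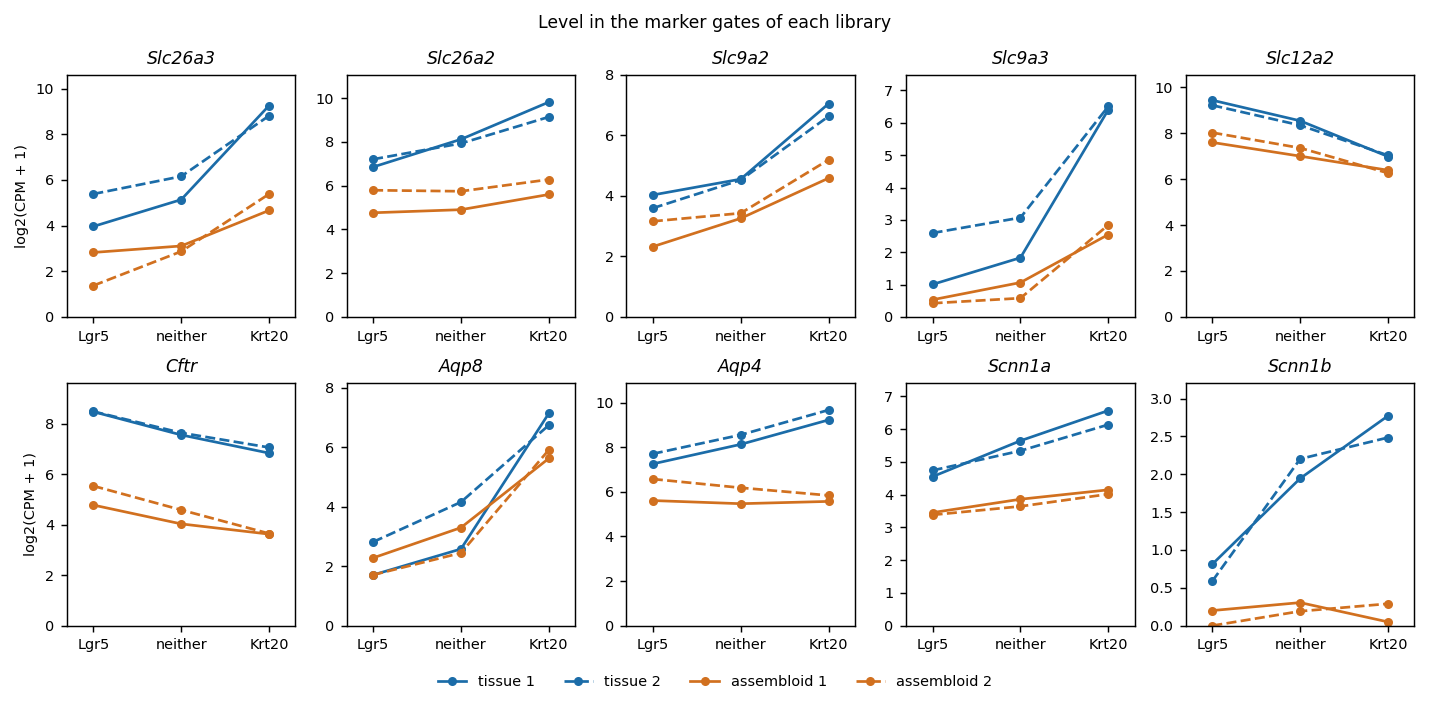
Levels of the 10 genes as log2(CPM + 1) in the Lgr5 gate, in cells of neither gate and in the Krt20 gate (x axis: gate; y axis: log2(CPM + 1)), tissue in blue and assembloids in orange, solid lines for replicate 1 and dashed lines for replicate 2. The tissue lines of Aqp4 climb towards the Krt20 gate and the assembloid lines do not, while those of Cftr run about parallel at different heights.

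The step between the gates differed between assembloids and tissue for 5 of the 10 genes by the interaction term of edgeR, beside 8.62% of all genes called, 3.95% higher and 4.67% lower. For Aqp4 the ratio of Krt20 to Lgr5 gate was 3.94 and 3.92 in the tissue libraries and 0.973 and 0.597 in the assembloid libraries, a difference of -2.43 on the log2 scale (SE 0.20, edgeR adjusted p = 0.002673). For Slc26a2 the ratios were 7.88 and 3.84 in tissue and 1.82 and 1.41 in assembloids (log2 difference -1.87, SE 0.32, edgeR adjusted p = 0.01829). The differences were -1.12 for Scnn1a (edgeR adjusted p = 0.03711), -0.85 for Slc9a2 (adjusted p = 0.04598) and 0.78 for Slc12a2 (adjusted p = 0.03808). Slc26a3 gave ratios of 41.9 and 11.01 in tissue and 4.01 and 25.7 in assembloids, which overlap, and its difference of -1.31 was not called (95% interval -3.50 to 0.88, edgeR adjusted p = 0.4372). Nor was that of Aqp8 (-1.01, 95% interval -2.46 to 0.44), Cftr (-0.12, 95% interval -0.60 to 0.36), Slc9a3 (-1.36, 95% interval -3.60 to 0.89) or Scnn1b (-2.25, 95% interval -7.50 to 3.01). The count of 5 was 1 without tissue library 1, 3 without tissue library 2, 4 without assembloid library 1 and 6 without assembloid library 2, where Slc26a3 (-2.51) and Aqp8 (-1.59) were called. Without tissue library 1 the calls of Slc26a2 (edgeR adjusted p = 0.05805), Slc9a2, Slc12a2 and Scnn1a were lost, without tissue library 2 those of Slc9a2 and Slc12a2, without assembloid library 1 that of Slc12a2 and without assembloid library 2 that of Slc9a2. Such fits of the gates have 1 residual degree of freedom. Aqp4 was called in each of these fits (edgeR adjusted p at most 0.04567), but its call was lost at 5% mitochondrial counts (-1.92, adjusted p = 0.07558). All 5 calls were lost there, that of Slc26a2 at an edgeR adjusted p of 0.3214. Without the library term the other 4 were lost (0.1295 to 0.4077). Without TMM those of Scnn1a, Slc9a2 and Slc12a2 were lost (0.0573 to 0.07219), and with DESeq2 those of Slc9a2 (adjusted p = 0.1417) and Scnn1a (0.06024). In thinned cells Slc26a2 (edgeR adjusted p = 0.05832), Slc9a2 (0.8059) and Slc12a2 (0.2024) were not called and Scnn1a turned to 0.16, and with gates at 2 or more UMIs Slc9a2 was not called (0.2728).

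A finer scale was given by the number of Krt20 UMIs in cells thinned to 2000 UMIs. In cells with 0, 1, 2 and 3 or more UMIs of Krt20, Aqp8 was at 13.4, 248, 269 and 566 CPM in tissue library 1 and at 26.9, 80.3, 208 and 767 in tissue library 2. In the assembloid libraries the values were 15.9, 53.3, 114 and 262, and 14.6, 68.1, 296 and 217. Aqp8 thus stood at a like level in cells without Krt20 in both groups and higher with each step of Krt20, except for the last step in assembloid library 2. Slc26a3 went from 92.1 to 1331 and from 118 to 1347 CPM between the first and last class in tissue, and from 11.1 to 94.7 and from 15.1 to 102 in assembloids. Slc9a3 went from 12 to 375 and from 19.5 to 293 in tissue, and from 1.48 to 19.4 and from 2.38 to 17.7 in assembloids. Slc12a2 fell from 420.4 to 14.7 and from 351 to 13.3 in tissue and from 122 to 48.5 and from 186 to 70.8 in assembloids. Aqp4 had its highest tissue level at 2 UMIs of Krt20, 519 and 723, and went from 40.1 to 26.7 and from 74.2 to 31.0 in assembloids. The class of 3 or more holds 68, 75, 206 and 113 cells, and these values are a description without a test.

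**Figure D4:**
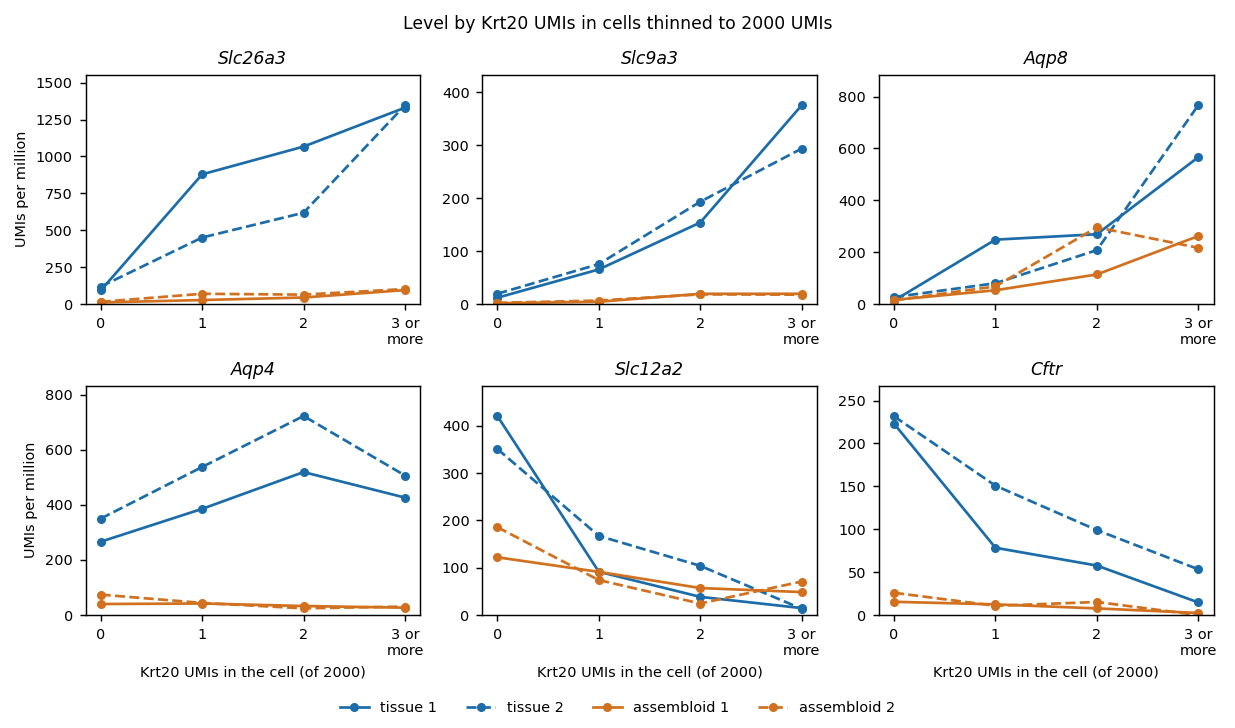
CPM of 6 genes in cells thinned to 2000 UMIs, by the number of Krt20 UMIs in the cell (x axis: 0, 1, 2 and 3 or more; y axis: CPM), with 1 line a library for tissue and assembloids. Slc26a3 reaches 1331 and 1347 in tissue against 94.7 and 102 in assembloids, and Slc12a2 is lower in the last class than in the first in all 4 libraries.

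Within the Krt20 gate, Aqp8 was found more often in cells with Slc26a3 than in cells without it. Among thinned tissue cells with a UMI of Slc26a3, 27.4% and 21.02% had a UMI of Aqp8, against 3.14% and 5.58% of those without. In assembloids the shares were 27.7% and 21.7% against 5.92% and 5.31%, so that Slc26a3-positive cells, though far rarer, carried Aqp8 at shares near those in tissue. Aqp4 was not divided in this way, with 35.1% and 45.01% against 35.4% and 37.7% in tissue and 6.54% and 7.89% against 7.26% and 8.75% in assembloids. In the Lgr5 gate a UMI of Cftr was found in 51.6% and 45.9% of tissue cells with Slc12a2 against 34.3% and 43.6% of those without, and in 6.47% and 8.64% against 5.26% and 5.93% of assembloid cells. Cells of one library share their preparation, and no test was made on them.

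Markers of other cells moved with these comparisons. In the Krt20 gate the summed level of 7 goblet genes was 14790 and 15510 CPM in tissue and 2056 and 2990 in assembloids. Over all cells it was 21110 and 23490, 2495 and 4844, and 375 and 499.6 in tissue, assembloids and organoids, and in the Lgr5 gate 13480 and 20570, 1070 and 2487, and 297 and 412. Enteroendocrine genes, 5 in all, summed to 879 and 983 CPM in the Krt20 gates of tissue and 84.4 and 398 in those of assembloids, and over all cells to 569 and 636 in tissue, 85.4 and 235 in assembloids and 7.79 and 29.05 in organoids. Their part in the results was not tested. Colonocyte genes, 10 in all, summed in the Krt20 gate to 5071 and 4471 CPM in tissue and 3044 and 3623 in assembloids. Over all cells they summed to 2174 and 2421 in tissue, 2049 and 2451 in assembloids and 729 and 736 in organoids. In the Lgr5 gate the sums were 866 and 962 in tissue, 1139 and 1432 in assembloids and 701 and 716 in organoids. The stromal libraries had 945 and 1609 CPM of the same list, so that it is not particular to colonocytes. The part of stromal RNA in the assembloid sums was not tested. This list holds Krt20 itself, which is in every cell of the Krt20 gate and in none of the Lgr5 gate. With goblet-rich cells left out of the Krt20 gate, the log2 difference of assembloids from tissue was -3.70 for Slc26a3, -3.23 for Slc26a2, -1.645 for Slc9a2 and -3.635 for Slc9a3. It was -3.03 for Cftr, -3.43 for Aqp4, -1.93 for Scnn1a, -0.85 for Aqp8 and 0.07 for Slc12a2. Scnn1b was at -3.31, against -4.97 with these cells kept. The edgeR adjusted p was at most 0.01358 for each gene but Slc12a2 (0.7551). In the Lgr5 gate without goblet-rich cells, Scnn1a was not called in assembloids against tissue (-0.58, edgeR adjusted p = 0.2038). Nor was it in organoids against tissue (-0.50, edgeR adjusted p = 0.2392). A list of 18 stromal, immune, endothelial and glial genes summed in the Krt20 gate to 3.72 and 5.97 in tissue, where 11 and 8 of them were at 0. In the Krt20 gate of assembloids the list summed to 297 and 100.3, where 1 and 2 were at 0. The Lgr5 gate had 11.3 and 1.51 in tissue and 178 and 143 in assembloids. The part of free RNA in the assembloid values was not tested. In Krt20 cells 6 cycling genes summed to 108 and 128 in tissue and 470.4 and 323 in assembloids, and in the Lgr5 gate 7 stem cell genes summed to 647 and 561 in tissue, 171 and 127 in assembloids and 387 and 597 in organoids. The stem cell list holds Lgr5 itself, so that part of its sum in this gate is set by the gate and varies with depth. Over all cells the cycling genes summed to 295 and 237 in tissue, 664 and 505 in assembloids and 1432 and 1203 in organoids. The stem cell genes summed to 132 and 110, 26.9 and 30.8, and 326 and 509 in the same order.

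Around these 10 genes, 59 further genes of ion and water transport in 7 lists were counted in the comparison of assembloids with tissue over all cells. In the list for the sodium channel's gamma subunit and the aldosterone pathway, 6 of 7 tested genes were lower and none higher, among them Hsd11b2, which protects the mineralocorticoid receptor from glucocorticoids (log2 -5.46), the receptor itself, Nr3c2 (-1.96), and the ubiquitin ligase Nedd4l (-1.32). Of 14 pump, cotransporter and potassium channel genes, 9 were lower, led by Kcne3 (-4.09), a beta subunit of potassium channels, and Kcnma1 (-3.92), and 1 was higher, Slc12a4 (2.55). Of 12 genes listed for anion and bicarbonate transport, 5 were lower, with Best2 at -4.06 and Ano1 at -1.98, and 2 were higher, Clca4b (3.88) and Clca4a (1.34). Sodium-proton exchange and its scaffold had 3 of 6 lower, with Slc9a3r2 at -2.77, and 1 higher, the exchanger Slc9a4 (3.24). Signals for fluid secretion were lower for 5 of 8 genes, with the guanylin gene Guca2a at -3.71, the kinase Stk39, which activates Slc12a2, at -1.95, and the guanylin receptor Gucy2c at -1.66, and 1 was higher, the kinase Prkg2 (1.59). Clca4a and Prkg2 are named outside the rule for named genes, after their values were seen. Short-chain fatty acid carriers split, with Slc5a8 at -6.41 and Slc16a7 at -2.55, and 3 of 4 lower, against Slc16a3, an exporter of lactate, at 7.42. Of 3 further aquaporins tested, Aqp1 (-2.58) and Aqp11 (-1.04) were lower and Aqp9 (3.93) higher. These counts are read against the 23.2% of all genes called lower and the 27% called higher. Through which groups these further genes passed the filter on low counts is not given here. The part of free RNA of the stroma in the genes called higher was not tested.

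In the Krt20 gate the same lists had 6 of 7 lower for the sodium channel and aldosterone list, 9 of 13 for pumps and potassium channels and 6 of 11 for anions. They had 5 of 5 lower for sodium-proton exchange, 4 of 8 for secretion signals, 3 of 4 for fatty acid carriers and 2 of 2 for aquaporins. These counts stand beside 22.9% of all genes called lower and 27.6% higher. Genes called higher were 3 of 11 for anions, 1 each for pumps and potassium channels, secretion signals and fatty acid carriers, and 0 in the other lists (edgeR). Scnn1g is counted as lower, at 1.098 and 1.048 CPM in tissue and 1 and 3 UMIs in the assembloid libraries, but it passed the filter through tissue alone. Over all cells, organoids against tissue had 5 of 7, 8 of 14, 8 of 12, 2 of 6, 4 of 8, 3 of 4 and 2 of 3 lower in the same order of lists, beside 22.9% of all genes lower and 24.4% higher. Genes called higher were 3 of 14 in pumps and potassium channels, 2 of 8 in secretion signals, 1 each in the lists for anions, sodium-proton exchange and fatty acid carriers, and 0 in the other lists.

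The genes whose levels ran most like those of 4 members over the 10 sums of gates and libraries, among 4366 genes, were ranked by Pearson's r on log2(CPM + 1). Slc26a3 was nearest to Slc6a8 (0.986), Myo1a (0.982) and Rnasek (0.981), and Aqp8 to Hcfc1r1 (0.993), Pmp22 (0.99) and S100a13 (0.986). Scnn1b was nearest to Spink1 (0.985) and Slc16a1 (0.979), and Cftr to Stambpl1 (0.991), Sec31a (0.984) and Stk39 (0.983). Scnn1b was at 5.83 and 4.60 CPM in the tissue Krt20 sums and at most 0.755 in the other sums. Its r therefore rests mainly on the tissue Krt20 sums. The sums share libraries in pairs, and these values are descriptions.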

How the data were processed

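The authors deposited raw UMI counts per gene and cell barcode for 8 libraries, without normalization. The file headers name Cell Ranger 7.1.0 for epithelium and 6.0.1 for stroma, the submitters' processing notes name mm10 and Cell Ranger 6, and whether introns were counted is not given in the sources used here. The study's methods describe replicates as biological. The tests measure the spread between 2 libraries a group.

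The limits of the study's methods, a minimum of 500 genes and a maximum of 10% mitochondrial counts, left other numbers of cells than the methods give. More assembloid cells were kept here (28126 and 6923), and fewer tissue cells (4688 and 4305) and organoid cells (4872 and 8033). Cells with more UMIs in the non-epithelial than in the epithelial list were left out (0 to 1284 per library). Doublets were not removed, and libraries shared 13 to 141 barcodes. UMIs were summed per library and gate with Python 3.11.15 and numpy 2.4.6, and tested in R 4.3.3 with edgeR 4.0.16 (filterByExpr, TMM, glmQLFTest) over all genes. Contrasts of the gates had a term for each library. In simulated data edgeR recovered 99% of 200 genes changed by 2 on the log2 scale among 19060 genes for assembloids against tissue over all cells, 98% in the Krt20 gate and 97.5% in the Lgr5 gate. False calls numbered 5, 9 and 17. The simulation had 1 fixed spread for all genes, no other difference between groups and changed genes drawn from the better counted ones. It does not cover genes with few UMIs or libraries that differ more. Shares of cells were taken after thinning to 2000 UMIs, which left out 110 to 6877 cells per library, and intervals at 95% cover counting error only. The rule for named genes takes all 10 members. From the 7 further lists, up to 3 called genes per list with the largest change over all cells were named. A gene of these lists and a gene ranked by likeness are not reported here. Of the gene identifiers 99.85% are in GENCODE M21 on GRCm38. The members and lists were chosen with earlier results of these data known. Alternatives were DESeq2 1.42.0, no filter, no TMM, a replicate block, each library left out, other limits for mitochondrial counts (5%, 20%, none) and genes (1000), all passing cells, goblet-rich cells left out (over 5% of UMIs in the goblet list), thinned cells and gates at 2 or more UMIs.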

Additional observations from a re-analysis of the deposited data

Results flagged for a closer look

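For 5 genes the step from the Lgr5 to the Krt20 gate differed between assembloids and tissue by the interaction term of edgeR (adjusted p under 0.05, 2 libraries a group). Aqp4 had a difference of -2.431 on the log2 scale (adjusted p = 0.002673), with library ratios of 3.94 and 3.92 in tissue and 0.973 and 0.597 in assembloids. Slc26a2 had -1.867 (edgeR adjusted p = 0.01829), with 7.88 and 3.84 against 1.82 and 1.41. Scnn1a had -1.123, Slc9a2 -0.851 and Slc12a2 0.782, with edgeR adjusted p-values of 0.03711, 0.04598 and 0.03808. All 5 calls were lost at 5% mitochondrial counts (Aqp4 at an edgeR adjusted p of 0.07558), and those other than Aqp4 without the library term and in thinned cells, where Scnn1a turned to 0.163. The assembloid ratios lay outside the range of the tissue ratios for these 5 genes. This adds no support, since the genes were picked by their calls in the same libraries. Non-epithelial genes were higher in the assembloid gates, as given above, and their part in these differences was not tested.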

How the results depend on the processing

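Called values were recomputed under the alternatives. The stricter gate applies to gated sums alone, organoid libraries are no part of the Krt20 gate or of the contrasts of gates, and in thinned cells 4 of the 10 genes could be tested in the Lgr5 gate. Of 1178 such values, 1081 kept direction and call, 96 kept their direction and lost the call, and 1 changed direction. The counts of called genes over all cells and in the Krt20 gate stayed within 1.5 times under each alternative. The count for the gate difference, 5 in the report, was 3 with DESeq2, 2 without TMM, 1 without the library term (no replicate block), 1 in thinned cells and 0 with at most 5% mitochondrial counts, where 4 had an unadjusted edgeR p under 0.05. Without TMM the median log2 change of all genes shifted to -0.342 for assembloids against tissue over all cells, -0.405 in the Krt20 gate and -0.408 in the Lgr5 gate. In the Lgr5 gate, assembloids against tissue had 3 called genes with at most 5% mitochondrial counts and 3 of 4 tested in thinned cells. Organoids against tissue had 2 of 4 in thinned cells and 3 with gates at 2 or more UMIs, and organoids against assembloids 1 under both. The cause was not tested, except that thinning left fewer genes to test. The share of all genes called under each alternative is not given beside these counts. A loss of calls among the 10 genes can therefore not be told from a loss over all genes.

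Leaving out 1 library at a time, the counts ran from 8 to 10 for assembloids and for organoids against tissue over all cells, 6 to 7 for organoids against assembloids, 8 to 9 in the Krt20 gate, 1 to 6, 4 to 7 and 2 to 3 for the same contrasts in the Lgr5 gate, 9 to 10 within tissue, 8 to 8 within assembloids and 1 to 6 for the gate difference. A group left with 1 library is assumed to vary like the others. The share of all genes called in the fits with a library left out is not given here or above. These counts can therefore not be told from a change over all genes.

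Directions that turned belonged to values that were not called, apart from Scnn1a in the gate difference, which was 0.163 in thinned cells. Scnn1a in organoids against assembloids (Lgr5 gate) was -0.004 with DESeq2, -0.043 at 5% mitochondrial counts and -0.028 with the stricter gate. Aqp8 in assembloids against tissue (Lgr5 gate) was -0.359 without TMM, -0.451 at 20% mitochondrial counts and -0.798 with no such limit. Slc12a2 in the Krt20 gate was 0.066 without goblet-rich cells, 0.079 in thinned cells and 0.285 with the stricter gate, and was called at -0.689 without TMM (edgeR adjusted p = 0.01101). Cftr in the gate difference was 0.108 at 20%, 0.09 with no limit and 0.543 in thinned cells. Within assembloids Aqp4 was 0.03 at 5% mitochondrial counts and Scnn1b -1.515 with the stricter gate. With libraries left out, the ranges that crossed 0 were -0.516 to 0.894 for Aqp8 in assembloids against tissue (Lgr5 gate); -0.824 to 0.074 for Slc26a2, -0.725 to 0.104 for Slc9a2 and -0.243 to 0.368 for Scnn1a in organoids against assembloids (Lgr5 gate); -0.356 to 0.304 for Aqp4 and -1.573 to 4.854 for Scnn1b within assembloids. For the gate difference they were -2.505 to 0.2 for Slc26a3, -1.842 to 0.002 for Aqp8, -0.479 to 0.242 for Cftr and -5.007 to 1.411 for Scnn1b.

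No pairing by replicate number was seen, as deviations of same-numbered libraries correlated at 0.053, -0.025 and -0.023. With 2 libraries a group this cannot exclude a shared mouse or batch. With a replicate block the counts were 9, 9 and 6 over all cells, 9 in the Krt20 gate and 6, 6 and 3 in the Lgr5 gate, as without it. Counts were few for Scnn1b, with 11 to 27 UMIs in each culture library, and for Slc9a3 in the Lgr5 gate, with 3 to 13 UMIs in each library. Organoids could not be tested in the Krt20 gate, which held under 20 cells in each organoid library.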

Other observations

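In organoid library 1 the 18 cells of the Krt20 gate stood apart from the other cells of that library. They held Aqp8 at 396.9 CPM and Slc26a3 at 101 CPM, against 1.05 and 0.885 over all its cells. These cells had 48 of the 166 UMIs of Slc26a3 in the library. Their 5 enteroendocrine genes summed to 2333 CPM, against 7.79 over the library, 879 and 983 in the Krt20 gates of tissue and 3935 in that of organoid library 2. The part of enteroendocrine cells was not tested. In organoid library 2 the 7 cells of this gate had no UMI of Aqp8 and 1 of Slc26a3.

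Scnn1b was the gene of the 10 that was higher in the stromal libraries (1.26 and 1.74 CPM) than in the assembloid and organoid epithelium (0.0853 to 0.165).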
